A study of Mus musculus with 4 samples.

Results

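Uterine ESR1 sites with a high tag count and no liver binding nearby were examined in peak lists from mouse tissue. ESR1, the estrogen receptor alpha, is a nuclear receptor that is activated by estrogens and acts as a transcription factor. It binds DNA directly at estrogen response elements or is recruited through other DNA-bound factors, mostly at enhancers away from promoters, and it attracts coactivators there. The uterus is a classical estrogen target, in which the receptor is present in epithelium, stroma and muscle, whereas hepatocytes express it at a lower level and use it in lipid and glucose metabolism.

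The sites were chosen by their measured values. A site had to be an autosomal peak of the uterus list with 200 or more tags, had to share no base with a liver peak, and its summit had to lie more than 50 kb from the nearest liver summit on the chromosome. Of the 24836 uterus peaks, 925 met these conditions and are called remote high-tag sites here. They were 3.77% (Wilson interval 3.54 to 4.02) of the 24527 autosomal uterus peaks. The tag limit alone was passed by 5.80% of the autosomal uterus peaks, or 1423 peaks. Of these 1423, 168 overlapped a liver peak, and another 330 lacked an overlap but lay within 50 kb of a liver summit. On chromosome X, 7 further peaks passed the other limits and were left out by the rule.

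Both tissues came from female C57BL/6 mice aged 8 weeks, for which the labels name no allele, treatment or agent. The groups were liver ESR1 ChIP, uterus ESR1 ChIP and an input control for each, with 1 sample in each group, and whole pulverised tissue was used, so cell types within an organ were not separated. The uterus ESR1 library had 22298008 unique tags and the liver ESR1 library 20016495, with controls of 22020520 and 18781348. With 1 library per tissue no spread between animals could be measured and no test between tissues was made. Intervals are 95% intervals that cover counting error only, and neighbouring sites are not independent of each other. A peak list holds no expression values, so the labelled tissues could not be checked against marker genes. Positions are those of mm9, the build named in the submitters' processing notes. Genes, transcription start sites and sequence at the sites were not analysed here, because no genome or annotation of that build was used.

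The values that chose the sites, and the enrichment measured in the same library, are given as a description. The 925 sites held 200 to 939 tags, with a median of 276 and quartiles of 229 and 358. There were 370 sites of 300 or more tags and 74 of 500 or more. In all they contained 290044 tags, which was 1.301% of the unique tags of the uterus library and 14.8% of the tags inside all uterus peaks. Fold enrichment over control, as the authors' lists give it, ranged from 10.4 to 176, with a median of 55.6 (quartiles 38.2 and 79.6). The remote peaks under 200 tags, 15893 in number, had a median of 51 tags and of 14.6-fold. The remote high-tag sites were also wide, with a median of 1065 bp against 557 bp for the remote peaks under 200 tags. They remained denser per length, at a median of 277 tags per kb against 88.3.

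**Figure D1:**
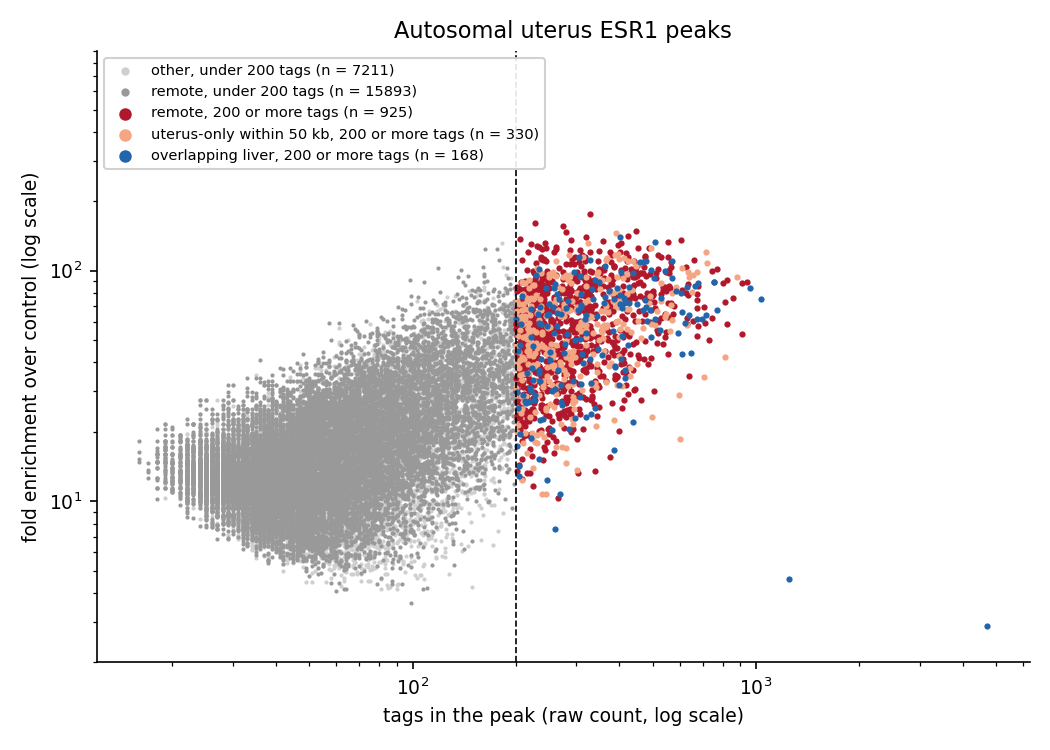
Tags (horizontal, log scale) and fold enrichment over control (vertical, log scale) of every autosomal uterus peak, 1 point per peak, coloured by tag count and position relative to liver binding, with a dashed line at 200 tags. The 925 remote high-tag sites (red) span 10.4- to 176-fold and lie among the other peaks of 200 or more tags, and the 2 points of most tags at low enrichment overlap liver peaks.

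The site with most tags lay on chromosome 17 at 71599333 to 71601892, with 939 tags (exact Poisson interval 879.9 to 1001) and 89.2-fold enrichment. Its nearest liver summit was 157 kb away, and the only other uterus peak within 50 kb held 30 tags. The site with the next highest count, on chromosome 3 at 79611601 to 79614305, had 913 tags at 53.0-fold. It had 8 uterus neighbours within 50 kb, the highest of which held 427 tags. A site on chromosome 5 at 119262107 to 119264597 followed with 911 tags at 88.1-fold. These leading sites thus differed in their surroundings, from nearly alone to densely accompanied.

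The other sites among the 10 with most tags showed the same variety. Those on chromosome 10 at 69620967 to 69623189 (855 tags, 76.0-fold) and on chromosome 8 at 91675689 to 91678310 (825 tags, 58.8-fold) had 5 and 6 neighbours within 50 kb. On chromosome 2 the site at 75185597 to 75187264 had 824 tags at 91.4-fold. On chromosome 9 the site at 77868634 to 77870694 had 810 tags at 73.1-fold and no uterus neighbour within 50 kb, its nearest being 68.2 kb away. In contrast, a chromosome 10 site at 76143352 to 76145354 (801 tags, 88.2-fold) had 14 neighbours within 50 kb. The list closed with a site on chromosome 9 at 55208431 to 55210460 (770 tags, 101.5-fold) and a site on chromosome 10 at 82411403 to 82413027 (756 tags, 89.3-fold). All 10 were given a MACS score of 3100, a value that 175 of the 925 sites share exactly, so that the score does not rank them. Another 18 sites scored above it.

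Ranking by fold enrichment picked other sites. None of the 10 sites of highest fold enrichment was among the 10 with most tags. The leader, on chromosome 2 at 81295495 to 81296404, was 176-fold enriched with 329 tags in a peak of 910 bp. A narrower peak of 527 bp on chromosome 16, at 73362677 to 73363203, was 161-fold enriched with 227 tags, and no other uterus summit lay within 116.9 kb of it. On chromosome 12, the sites at 94361961 to 94362620 (274 tags, 157-fold) and 16797129 to 16797809 (279 tags, 148-fold) contrasted in their distance to liver binding, at 1427 and 56.4 kb. The second of them lay among 11 uterus neighbours, the highest with 722 tags.

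The remaining sites of the leading 10 by fold enrichment ran from 149-fold down to 136-fold. Chromosome 8 carried the strongest of them at 27468839 to 27469786, with 448 tags at 149-fold. A site with 425 tags on chromosome 5, at 46603817 to 46604816, reached 141-fold, and 321 tags on chromosome 16, at 14711641 to 14712368, gave 140-fold. Enrichment was 137-fold at 150812403 to 150813244 on chromosome 1, where the count was 206 tags. The last sites, both at 136-fold, held 606 tags on chromosome 15 (87853219 to 87854659) and 290 tags on chromosome 6 (144644012 to 144644622). The chromosome 8 site had a neighbour of 639 tags within 50 kb, so it was not the site with most tags in its own surroundings. The chromosome 1 site passed the tag limit by 6 tags only.

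Across the 925 sites, tags and fold enrichment were weakly related (Pearson r = 0.30, Spearman rho = 0.32, across sites of 1 library, given as a description). Tags rose with peak width (rho = 0.44), and fold enrichment fell with it (rho = -0.39). When the sites were ordered by fold enrichment and divided into 3 groups of about equal size, the median width was 1235 bp in the group of lowest enrichment, 1023 bp in the middle and 913 bp in the highest. Tag density ran the other way, with medians of 209, 276 and 346 tags per kb. The median number of uterus neighbours within 50 kb was 4 in each of the 3 groups.

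A small group combined many tags with low enrichment. There were 29 sites below 20-fold, with a median width of 1548 bp and 155 tags per kb, compared with 1048 bp and 280 tags per kb in the other 896. The lowest was on chromosome 2 at 71568595 to 71570515, at 10.4-fold with 265 tags over 1921 bp. The next, at 149655968 to 149657971 on chromosome 7, had 224 tags over 2004 bp and 11.6-fold enrichment. The third lowest had 208 tags at 12.5-fold, on chromosome 12 from 80836186 to 80837328. At the other end, 84 of the 925 sites were enriched 100-fold or more, as were 115 of all 1423 autosomal uterus peaks of 200 or more tags. Of all autosomal uterus peaks, 124 reached 100-fold, and 7 of them were remote peaks under 200 tags, with a highest value of 124.5-fold; the tag limit therefore left out a few strongly enriched remote peaks.

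The limits of the rule cut through continuous distributions. Just inside the tag limit, 5 sites had exactly 200 tags, among them chromosome 11 at 45121382 to 45122471 (34.3-fold) and chromosome 17 at 83941575 to 83942491 (55.9-fold). Just outside it, 9 remote peaks had 199 tags, among them chromosome 1 at 92401122 to 92402248 (22.3-fold) and at 169884628 to 169885525 (45.03-fold). A count of 200 has an exact Poisson interval of 173.2 to 229.7 and a count of 199 one of 172.3 to 228.7, so these peaks are not distinguishable by their counts. The lower bound reached 200 in 699 of the 925 sites. Of the remote peaks under 200 tags, 291 had an upper bound of 200 or more.

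At the distance limit the closest sites inside were on chromosome 11 at 98557215 to 98558854 (496 tags, 80.0-fold, 50.56 kb from a liver summit) and on chromosome 17 at 46766394 to 46767546 (212 tags, 23.9-fold, 50.70 kb). The nearest outside were on chromosome 13 at 43605456 to 43606608 (284 tags, 91.3-fold, 49.93 kb) and chromosome 7 at 119463410 to 119464411 (309 tags, 58.0-fold, 49.46 kb).

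High tag counts did not go along with a larger share of sites far from liver binding. Among the 1255 autosomal uterus-only peaks of 200 or more tags, 925 were remote, or 73.7% (Wilson interval 71.2 to 76.1). Among those under 200 tags 73.4% were remote (72.8 to 74.0), so the share of remote peaks was near this background. By tag count, the share was 82.3% (80.6 to 83.8) at 16 to 29 tags, 70.8% (69.8 to 71.8) at 50 to 99 tags and 74.7% (65.4 to 82.3) at 500 or more. Beyond 50 tags it stayed between 70.8 and 74.7%. Direct overlap with a liver peak was more frequent among the high-tag peaks, with 11.8% (10.2 to 13.6) of all autosomal peaks of 200 or more tags against 6.31% (6.01 to 6.64) of those below. A peak counted as lacking in liver may have been under the cutoff there: the lowest liver peak held 18 tags and the median liver peak 58, and tags outside called peaks are not listed.

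**Figure D2:**
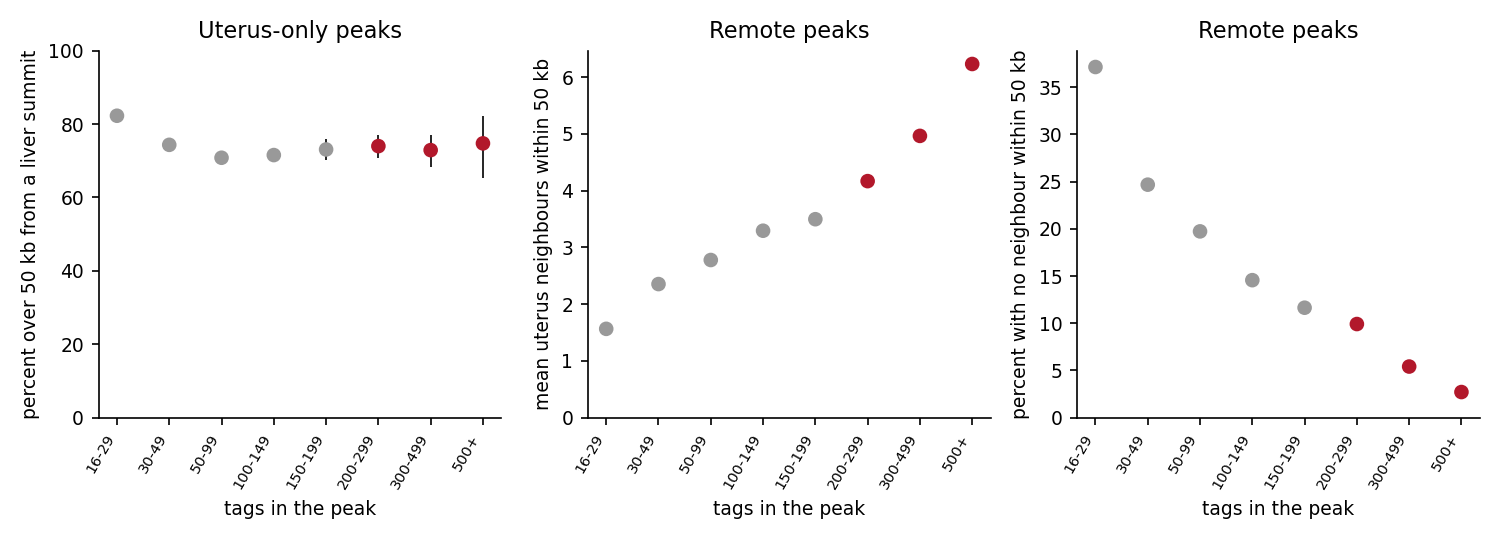
Uterus-only autosomal peaks grouped by tag count (horizontal axis), showing the percent over 50 kb from a liver summit with 95% Wilson intervals (left; bars shorter than the points are hidden), and for the remote peaks the mean number of other uterus summits within 50 kb (middle) and the percent with none (right). The share of remote peaks stays between 70.8 and 82.3% over all groups, whereas neighbours increase from a mean of 1.56 to 6.23 and peaks without a neighbour decrease from 37.1% to 2.70%; red points are the groups of 200 or more tags.

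The sites lay at very different distances from liver binding. The median distance to the nearest liver summit was 213 kb (quartiles 106 and 437 kb), and the most distant site was 4067 kb away. Between 50 and 100 kb there were 205 sites, between 100 and 250 kb 316, between 250 and 500 kb 206, and between 500 and 1000 kb 119. Beyond 1 Mb lay 79 sites, or 8.54% (6.91 to 10.5), compared with 11.0% (10.5 to 11.5) of the remote peaks under 200 tags. Those peaks were also farther from liver summits at the median, at 245 kb (binomial interval of the median 240.1 to 250.9) against 213 kb (190.0 to 228.2). By tag count this median was 331 kb at 16 to 29 tags, 251 kb at 30 to 49 and 228 kb at 50 to 99. It was 244 kb at 100 to 149 tags and 207 kb at 150 to 199. Above the limit it was 197 kb at 200 to 299 tags, 233 kb at 300 to 499 and 155 kb at 500 or more. The median thus did not change in a step at 200 tags.

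**Figure D3:**
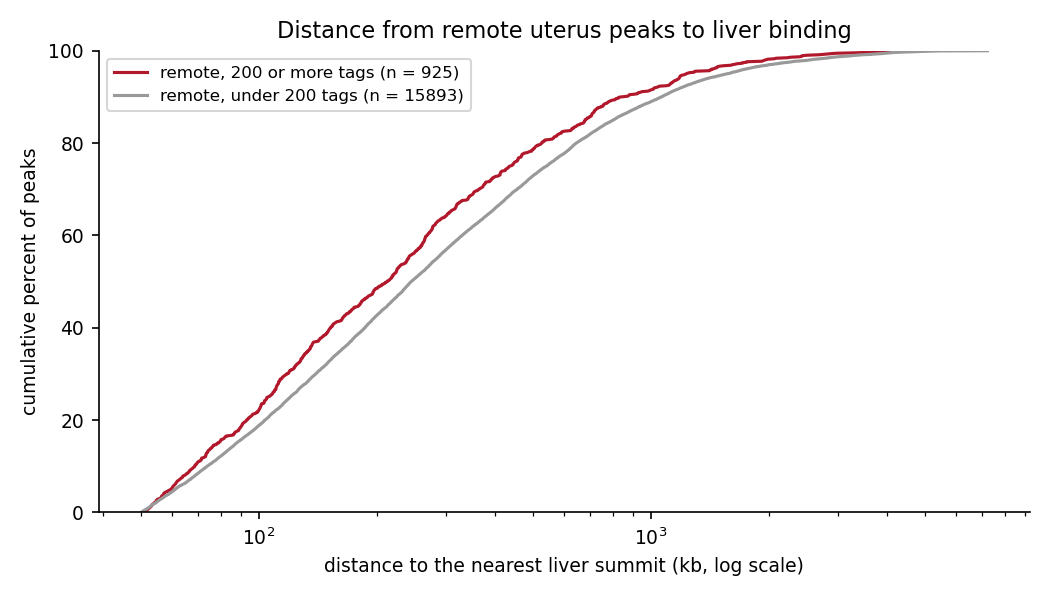
Cumulative percent of remote uterus peaks (vertical) by distance to the nearest liver summit in kb (horizontal, log scale), for the 925 sites of 200 or more tags and the 15893 remote peaks below. Both curves start at 50 kb by the rule, and the curve of the high-tag sites runs to the left, with medians of 213 and 245 kb.

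The most distant sites came from 2 regions. On chromosome 8 the site at 18916809 to 18918210 was 4067 kb from a liver summit, with 303 tags and 44.6-fold enrichment, and the site at 18216366 to 18217219 was 3366 kb away, with 267 tags and 102.5-fold. On chromosome 5 the sites at 12856789 to 12857421 (203 tags, 84.5-fold), 13624656 to 13625174 (245 tags, 69.6-fold) and 12655009 to 12655897 (404 tags, 132-fold) were 3816, 3744 and 3615 kb away. Tags and distance were both limited by the rule, so their values by distance are a description. The median was 271 tags in the sites 50 to 100 kb from a liver summit and 271 in the 17 sites beyond 2000 kb. In the remote peaks under 200 tags it was 55 and 44 in the same classes. The median fold enrichment of the high-tag sites was 54.0 and 73.0 in these classes, and that of the remote peaks under 200 tags was 13.7 and 17.1.

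The remote high-tag sites had more uterus peaks around them than the weaker remote peaks. Neighbours are other uterus summits within 50 kb. The sites had a median of 4 neighbours (quartiles 2 and 6) and a mean of 4.59, and the remote peaks under 200 tags had a median of 2 (quartiles 1 and 4) and a mean of 2.57. The nearest uterus summit was 4.80 kb away at the median (binomial interval 4.25 to 5.36), against 13.1 kb (12.6 to 13.6). It lay within 5 kb in 51.1% of the sites (47.9 to 54.4) and in 30.9% of the weaker remote peaks (30.1 to 31.6). No neighbour was found at 73 sites, or 7.89% (6.32 to 9.81), against 22.6% (22.0 to 23.3). These are differences between peaks of 1 library, for which no test was made.

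The number of neighbours increased in steps with the tag count, also below the limit of 200. Remote peaks of 16 to 29 tags had a mean of 1.56 neighbours, those of 50 to 99 tags 2.78, and those of 150 to 199 tags 3.50. Above the limit the mean was 4.17 at 200 to 299 tags, 4.96 at 300 to 499 and 6.23 at 500 or more. Among the 74 sites of 500 or more tags, 2.70% had no neighbour.

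Among the high-tag peaks, those beside liver binding had slightly more neighbours than the remote sites and those that overlapped it had fewer, and both had more than the weaker remote peaks. The 330 high-tag peaks within 50 kb of a liver summit had a median of 5 neighbours, and 3.94% of them (2.32 to 6.62) had none, an interval that overlaps the one of the remote sites. The 168 high-tag peaks that overlapped liver peaks had a median of 3, and 8.33% (5.03 to 13.5) had none. Their nearest uterus summit was farther away than that of the remote sites, at a median of 7.16 kb (binomial interval 5.58 to 8.99), and lay within 5 kb in 36.9% (29.98 to 44.4). At 2 to 5 kb they had 60.5 other uterus summits per Mb, against 80.7 at the remote sites. Farther out this gap was smaller, with 55.95 against 59.03 at 5 to 10 kb, 47.0 against 47.2 at 10 to 20 kb and 35.12 against 38.85 at 20 to 50 kb. The overlapping peaks had the higher value at 50 to 100 kb (29.9 against 29.1) and at 100 to 200 kb (24.6 against 21.7). Within the remote sites, the median fell from 4 at 50 to 100 kb and 5 at 100 to 250 kb from a liver summit to 2 beyond 1 Mb. The remote peaks under 200 tags also fell, from a median of 2 neighbours at 50 to 100 kb to 1 beyond 1 Mb.

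The difference in neighbours became smaller with distance. Per Mb of flanking DNA the sites had 80.7 other uterus summits at 2 to 5 kb, 59.0 at 5 to 10 kb and 38.8 at 20 to 50 kb. The weaker remote peaks had 39.4, 30.7 and 22.2, so the ratios were 2.05, 1.92 and 1.75. At 100 to 200 kb the ratio was 1.31, and at 500 to 1000 kb it was 1.08 (14.1 against 13.1 summits per Mb). Within 2 kb the ratio was 1.39. Wide peaks leave less room for a separate call there, and whether neighbouring binding events are joined or called separately depends on the peak caller; this was not tested.

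**Figure D4:**
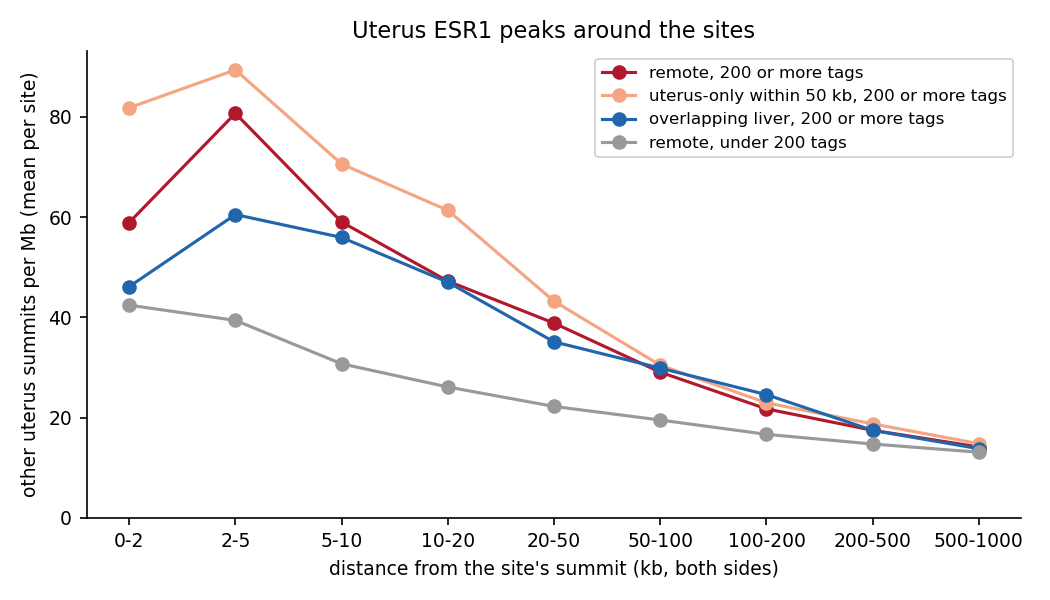
Mean number of other uterus summits per Mb (vertical) in rings of increasing distance from the summit of a site (horizontal, kb on both sides), for 4 sets of autosomal uterus peaks. The remote sites of 200 or more tags (red) reach 80.7 per Mb at 2 to 5 kb against 39.4 for remote peaks below 200 tags (grey), and the sets approach each other at 500 to 1000 kb.

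Since 5.80% of the autosomal uterus peaks reach 200 tags, the rule itself makes most neighbours weaker than the site, and their counts are given as a description. Of the 852 sites with a neighbour, 655 held more tags than any uterus peak within 50 kb, or 76.9% (73.9 to 79.6). This share was 85.1% (78.6 to 89.8) for the high-tag peaks that overlapped liver peaks and 25.8% (25.1 to 26.6) for the remote peaks under 200 tags. Taking for each site the median tags of its neighbours, the median over sites was 69 tags, against 59 around the remote peaks under 200 tags. A neighbour of 200 or more tags was present at 337 sites, or 36.4% (33.4 to 39.6), against 16.01% (15.4 to 16.6) of the weaker remote peaks. Of the high-tag uterus-only peaks within 50 kb of a liver summit, 77.3% (72.4 to 81.6) of those with a neighbour held the most tags and 37.0% (31.9 to 42.3) of all had a high-tag neighbour.

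The 73 sites without a neighbour, all of 200 or more tags by the rule, had a median of 243 tags and 63.7-fold enrichment, and the 852 others 279 tags and 55.4-fold. The 95 sites with 10 or more neighbours had a median of 308 tags and 49.2-fold. The site farthest from any other uterus summit, at 502 kb, was on chromosome 5 at 49916472 to 49917470 with 280 tags and 83.0-fold enrichment. The site with most neighbours, 18 within 50 kb, was on chromosome 12 at 80992804 to 80993658 with 359 tags and 79.2-fold. Both were picked after their values were seen.

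The summit of a remote high-tag site lay farther from the middle of its peak than that of a weaker one. The median distance from summit to peak centre was 113.5 bp, compared with 37.5 bp in the remote peaks under 200 tags, which were narrower. The summit fell in the outer 20% of the peak at either end in 2.92% of the sites (2.01 to 4.21) and in 1.04% (0.898 to 1.22) of the weaker peaks. For the high-tag peaks near and overlapping liver binding these shares were 2.42% (1.23 to 4.71) and 2.98% (1.28 to 6.78).

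Liver summits divide the autosomes into 6877 closed intervals, of which 2812 are longer than 100 kb and could hold a remote summit. The 925 sites fell into 524 intervals, including 4 at a chromosome end that are closed by a liver summit on 1 side only and held 7 sites. There was 1 site in 325 intervals, 2 sites in 109, 3 or 4 in 61, and 5 or more in 29. The last group held 174 of the sites. The closed intervals with a site had a median length of 0.895 Mb and ranged from 0.106 to 14.7 Mb.

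A pair of these intervals held 11 sites each. On chromosome 1, between the liver summits at 91412555 and 92864310, 69 uterus peaks were called along 1452 kb, which is 47.5 per Mb against 10.2 per Mb over all autosomes. The 11 sites among them had 217 to 655 tags, and the other 58 peaks 32 to 199. The sites were found from 718 kb to 1388 kb along the interval, in its right part. On chromosome 6, between liver summits at 50516932 and 51221064, 31 uterus peaks lay in 704 kb, and the 11 sites had 250 to 445 tags. The other 20 peaks there had 26 to 173 tags. The liver peaks that bound these intervals were themselves modest, with 63 and 50 tags on chromosome 1 and 57 and 48 on chromosome 6.

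**Figure D5:**
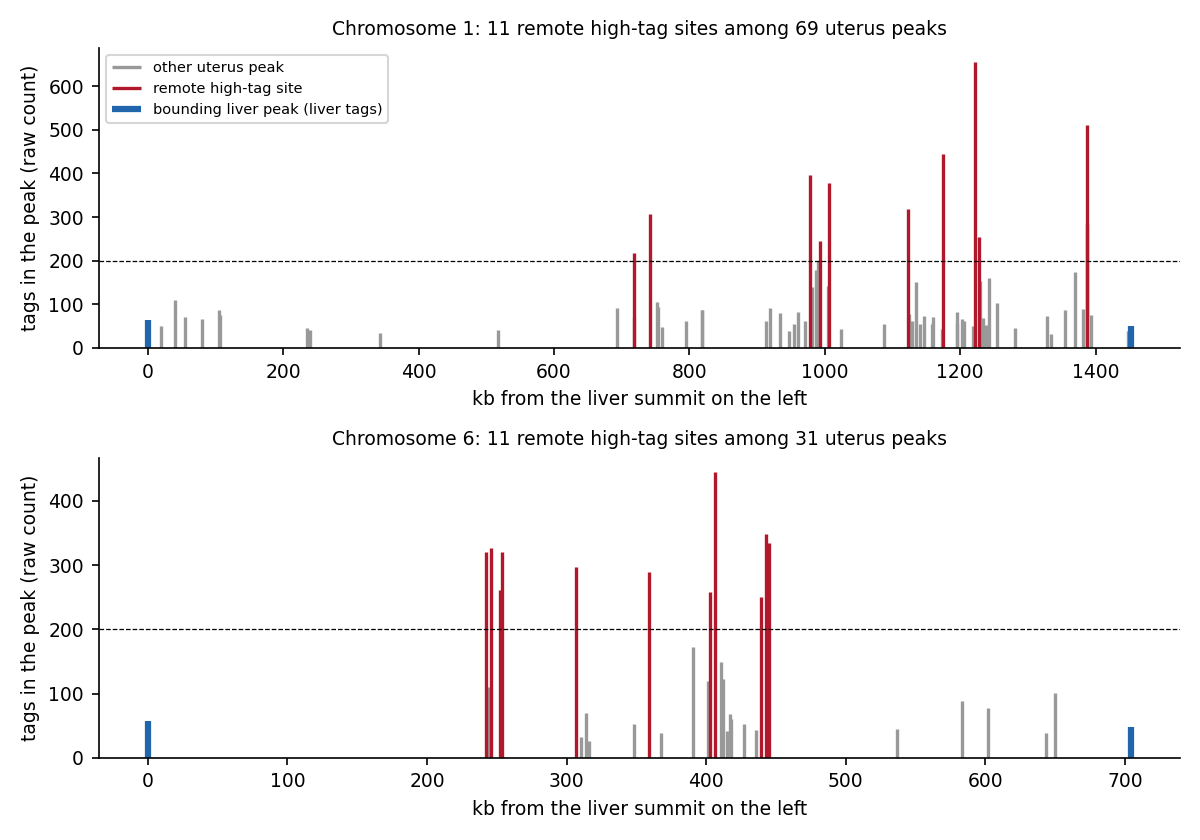
Tags (vertical) of all uterus peaks between consecutive liver summits, by distance in kb from the left liver summit (horizontal), in the intervals on chromosomes 1 (top) and 6 (bottom) that hold 11 remote high-tag sites each (red); grey lines are other uterus peaks, blue lines the bounding liver peaks with their liver tags, and the dashed line marks 200 tags. Tags of the liver and uterus lists are not scaled to each other, and the red lines cluster in part of each interval.

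The chromosome 6 sites formed runs of closely spaced peaks. Of the 11, 4 lay between 50758628 and 50772051, with 321, 327, 261 and 321 tags from left to right. A single site at 50823650 to 50824428 followed, with 297 tags and the highest enrichment of the interval at 114.9-fold. The last 6 lay between 50875845 and 50962776 and held 290, 258, 445, 250, 348 and 334 tags. In this last run 16 uterus peaks were called, so 10 of them stayed under the limit.

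Runs of this kind, in which consecutive sites were at most 50 kb apart, took in 329 of the 925 sites, or 35.6% (32.6 to 38.7). There were 94 runs of 2 and 38 of 3 or more, and 596 sites stood alone among the remote high-tag sites. The largest runs had 7 sites. On chromosome 10, 7 of the 10 uterus peaks from 76098596 to 76158822 were remote high-tag sites, with 231, 314, 265, 402, 801, 247 and 368 tags and enrichments of 31.5- to 88.2-fold. On chromosome 15, 7 of 13 uterus peaks from 83461334 to 83522741 were, with 211, 228, 309, 219, 438, 458 and 255 tags and 33.3- to 83.5-fold. The nearest liver summits were 104.7 kb from the first run and 100.8 kb from the second. The closest pair of sites had summits 0.595 kb apart, on chromosome 10 at 87726068 to 87726745 (213 tags) and 87726765 to 87727813 (270 tags). Apart from the closest pair, the intervals and runs were picked after their values were seen.

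Every autosome carried remote high-tag sites, from 29 on chromosome 16 to 71 on chromosome 9. Chromosome 9 had 0.598 sites per Mb and chromosome 12 0.264, against 0.386 over all autosomes. As a share of the uterus peaks of the chromosome, the sites made up 5.24% (4.18 to 6.56) on chromosome 9 and 2.87% (2.03 to 4.04) on chromosome 12. The interval held the share of all autosomes, 3.77%, for 18 of the 19 autosomes, chromosome 9 being the exception. The 19 intervals were not adjusted for their number, and sites in a run are not independent of each other. The share of high-tag peaks that were remote ranged from 52.5% on chromosome 11 to 77.0% on chromosome 4. Liver density was 4.62 peaks per Mb on chromosome 11 and 3.004 on chromosome 4. Chromosome 12, with 53.4% remote, had 2.38 liver peaks per Mb, chromosome 19, with 63.3%, had 4.43, and chromosome 3, with 74.2%, had 2.07. These chromosomes were picked after their values were seen, and a relation of the remote share to liver density was not tested.

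Over all tag counts, 68.6% of the autosomal uterus peaks were remote and 6.63% overlapped a liver peak. Of the 100 autosomal uterus peaks with most tags, 56 were remote, 21 were uterus-only within 50 kb of a liver summit and 23 overlapped a liver peak. Of the 100 with the highest fold enrichment, 68 were remote sites of 200 or more tags. Another 19 were uterus-only within 50 kb of a liver summit, and 9 overlapped a liver peak. The 68 leave out remote peaks under 200 tags, whereas the 68.6% counts remote peaks of any tag count. The ranks by tags and by fold enrichment use the measure of the rule or one closely tied to it and are given as a description.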

How the data were processed

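ChIP-seq peak lists of 1 liver and 1 uterus ESR1 library were used; the inputs entered through the authors' peak calling. Per the submitters' processing notes, peaks were called by the authors with MACS 1.3.7.1 on mm9. Per the file headers, tags were 50 bp and the p cutoff was 1e-10. The aligner was not given in the sources used here. Tags, as deposited, are raw counts per peak without scaling. Fold enrichment, as deposited, is the ratio of ChIP signal over local control background. The deposited score grows with the negative log10 of the p-value, and the deposited false discovery rate, a percent, was not used.

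Summits were start plus summit minus 1, and overlap meant 1 shared base. Shares have Wilson intervals, medians binomial order-statistic intervals and tags exact Poisson intervals; tags without molecular identifiers are not independent molecules. With 1 library per tissue nothing was tested. Overlaps and the choice of sites were checked on simulated peaks, and distances to liver summits and overlaps on a sample of the real uterus peaks. Neighbour counts were not checked in this way. No simulated liver summit was placed close to the 50 kb limit and no simulated overlap was partial, so the simulation did not probe these edges. The sites and comparison sets were chosen with earlier results of these data known. Sites named were the 10 with most tags, the 10 with highest fold enrichment, the 5 most distant from liver summits, the 3 of lowest enrichment, 2 on each side of each limit and the closest pair. Planned motif, start site and gene list counts need an mm9 genome and were not analysed here. Alternatives changed the tag and distance limits, the overlap rule, the score threshold, the measure and the window. Computation used scipy 1.17.1, pandas 2.3.3 and numpy 2.4.6 under Python 3.11.15, and plots used matplotlib 3.10.9.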

Additional observations from a re-analysis of the deposited data

How the results depend on the processing

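Of 50 alternative values, 31 stayed within 1.5 times the count or inside the 95% interval of the value, and 19 moved out. This split does not measure robustness, because some outcomes followed from the setting. A 1000 bp gap counted as overlap does not reach sites over 50 kb from liver summits, and another window changes the neighbour count. The number of sites was 1612 at a limit of 150 tags and 370 at 300. The remote share of high-tag uterus-only peaks was 86.1% at a distance of 20 kb, 57.4% at 100 kb, and 84.9% when both lists were limited to scores of 200 or more, which removes liver peaks. The share of the weaker uterus-only peaks was not computed under these alternatives. Whether the 2 shares stay near each other there is therefore not known. At 150 tags the median was 3 neighbours, 5.37 kb to the nearest uterus summit, 45.5-fold, a score of 1525 and a width of 976.5 bp; at 300 tags it was 69.4-fold, 3100 and 1228 bp. The median neighbours of the sites and of the weaker remote peaks were 2 and 1 in a window of 20 kb, 7 and 4 in 100 kb, and 3 and 1 with summits within 5 kb left out, an alternative chosen after seeing the data. The sites thus had the higher median in each of these windows. Sites of 20-fold or more, also chosen after seeing the data, had a median of 4 neighbours. No paired analysis was possible because each tissue has 1 library. The motif and start site alternatives were not run, and counting error blurs the tag limit.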
